A study of Mus musculus with 10 samples.

Results

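The cell cycle genes described here are 40 genes in 2 groups by their known function, chosen with earlier results of these data known. The first group holds 17 genes of DNA replication and entry into S phase, and the second holds 23 genes of mitosis. All 40 are among the 55401 genes of the count table, and all 40 passed the filter on low counts and were tested among 14098 genes. They were measured by polyA RNA-seq in livers of female mouse fetuses at embryonic stage E18.5. In 5 of them Mir483 was deleted on the paternal allele (Mir483Pat-KO), and the other 5 were wild-type (WT) littermates. Mir483 is a microRNA gene within an intron of the growth factor gene Igf2, which is read from the paternal allele in the fetus, and the comparison asks what its loss does to the fetal liver transcriptome. The deletion was made in JM8.F6 embryonic stem cells of the C57BL/6N strain, in which the selection cassette was excised with Cre, and both injected clones carried the deletion. The line was then kept by crosses to C57BL/6J wild-type mice, and the authors give C57BL/6J as the genetic background of all their mice. The paternal copy is deleted in all cells of the fetus and not in 1 liver cell type, and the maternal copy is intact.

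A dividing cell copies its DNA in S phase and separates the copies in mitosis. Genes of the first set are switched on by E2F transcription factors as a cell leaves G1, and they encode the MCM helicase, the sliding clamp PCNA, enzymes that supply nucleotides and the cyclins that start replication. Genes of the second set rise later, in G2 and M phase, under the MuvB complex with MYBL2 and FOXM1, and encode mitotic cyclins and kinases, the kinetochore, the spindle and the cytokinesis machinery. The fetal liver holds both dividing hepatoblasts and hepatocytes and the precursors of red cells and other blood cells, which also divide.

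Each library held between 10831350 and 14765880 read-pair counts, and an exact permutation test of the totals between genotypes gave a two-sided p of 0.817. Mir483 itself had between 10 and 22 counts in the 5 WT libraries and 0 in the 5 Mir483Pat-KO libraries, where a count of 0 allows up to 3. Levels are given as CPM, counts scaled to a common library size after TMM normalization. Fold changes come with edgeR's quasi-likelihood test, with Benjamini-Hochberg adjustment across all 14098 genes. A gene passed at an adjusted p under 0.05. Of all genes tested 5.19% passed, 2.43% as higher in Mir483Pat-KO and 2.76% as lower. The median log2 fold change over all genes tested was 0.0042. Hepatocyte markers were abundant in every library, with a summed level of 273292 to 304191 CPM (WT) and 252810 to 287769 CPM (Mir483Pat-KO).

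Mitosis genes rose in Mir483Pat-KO livers, 9 of 23, while none of the S phase genes passed the test. No mitosis gene fell, and 39.1% passed as higher, where 2.43% of all genes did. As the genes were chosen with earlier results of these data known, these shares are a description and no test of enrichment. With the GC content and length offsets 3 mitosis genes passed, and 0 in the lower range of identification numbers alone, both described below. The median log2 fold change of the mitosis genes was 0.24, a fold of 1.18, and all 23 lay above 0, as did 50.9% of all genes. Of the 17 S phase genes 0 passed in edgeR in either direction, 6 were higher at an unadjusted p under 0.05, where 11.5% of all genes were, and DESeq2 passed 1 and limma-voom 0. The median log2 fold change of the S phase genes was 0.14, a fold of 1.10, with 15 of 17 above 0. The medians of the 2 groups thus differed by 0.10 on the log2 scale, a difference that is given as a description and was not tested. In bulk RNA more dividing cells cannot be told apart from more of these transcripts per cell.

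**Figure D1:**
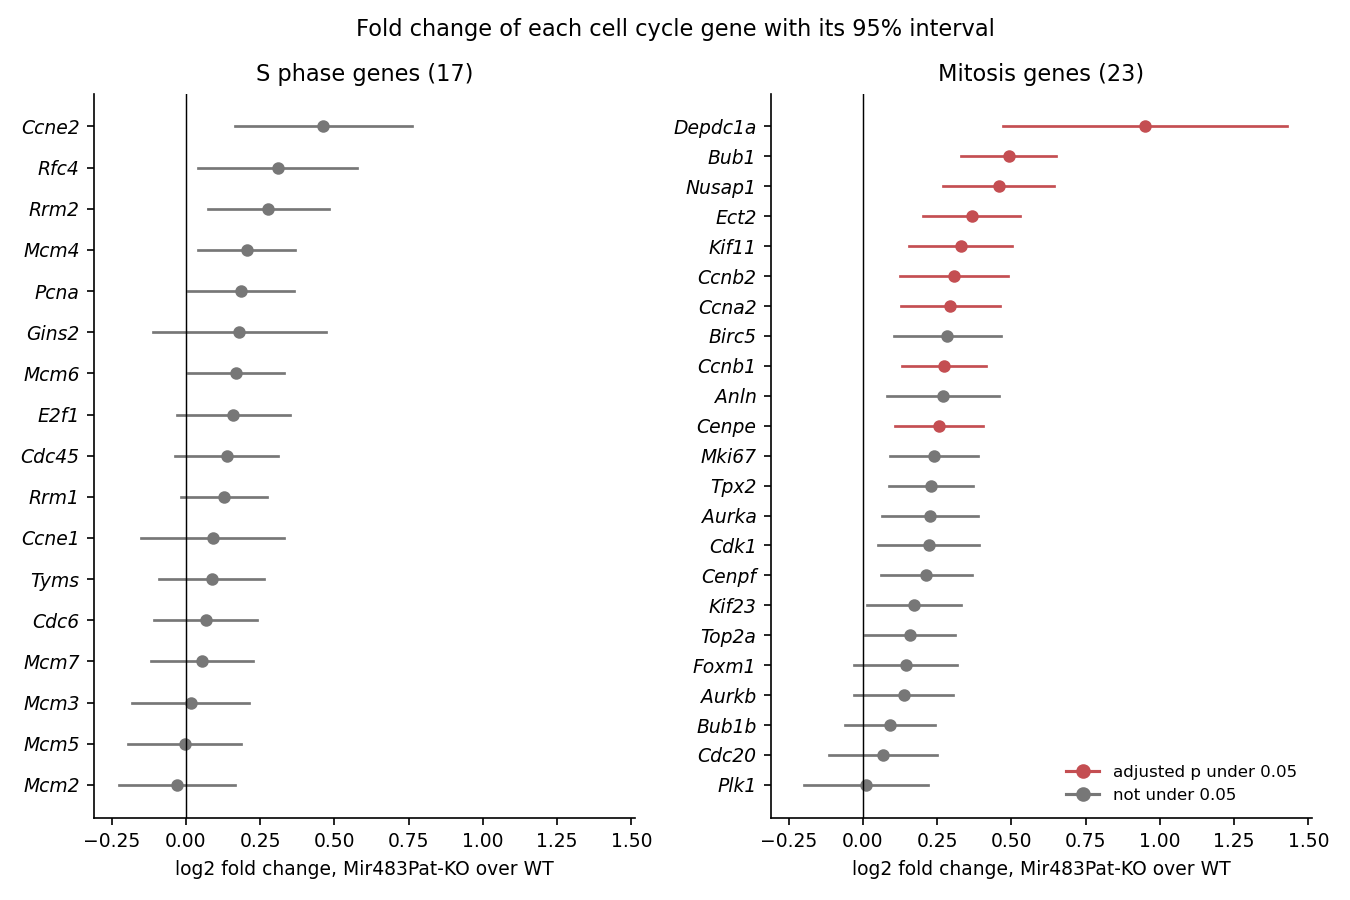
Log2 fold change of Mir483Pat-KO over WT (x axis) for the 17 S phase genes (left) and the 23 mitosis genes (right), with edgeR's 95% interval as a line and genes with an adjusted p under 0.05 in red. The 9 red genes are all mitosis genes, with Depdc1a the farthest right at 0.95, while Mcm2, Mcm5, Mcm3 and Plk1 sit at about 0.

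The promoters of the 2 groups held different shares of E2F and CHR elements, and examples of both are shown for that reason. RefSeq promoter windows (GRCm38.p6, 250 bases before to 50 bases after a start) were matched for 33 of the 40 genes, with none for Mcm4, Gins2, Ccne2, Ccna2, Aurkb, Tpx2 and Foxm1. The E2F element was searched as TTT, then 2 bases that are each C or G, then CGC, on both strands. A single stretch can match on both, as in Mcm5 and Mcm6. It was found in 5 of 14 S phase genes (35.7%), in 1 of 19 mitosis genes (5.26%) and in 4.59% of all tested genes with a window. The cell cycle homology region (CHR), the element that the MuvB complex contacts, was searched as TTTGAA or TTCGAA on both strands. It was found in 15 of 19 mitosis genes (78.9%), in 3 of 14 S phase genes (21.4%) and in 16.9% of tested genes. A CCAAT box, bound by NF-Y, stood in the window of 16 of 19 mitosis genes, 9 of 14 S phase genes and 43.0% of tested genes. Over all RefSeq windows, tested or not, 2.26% held the E2F element, 19.2% the CHR and 37.4% the CCAAT box. The first 3 sequences are E2F elements of helicase genes and the rest are CHR elements of mitosis genes, each 5′ to 3′ in the direction of transcription with the element in capitals, GCGGGAAA and TTCAAA being elements read on the other strand.
Mcm6: ggcgtatgctTTTGGCGCgaaaagtgcg
Mcm5: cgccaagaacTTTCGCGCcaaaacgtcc
Mcm3: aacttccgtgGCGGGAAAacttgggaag
Bub1: gcgcggggaaTTCGAAtcgccggcgg
Ect2: actggattttTTTGAAtcggaggcgg
Ccnb2: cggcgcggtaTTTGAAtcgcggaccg
Kif11: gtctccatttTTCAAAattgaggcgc
Depdc1a: ctcggagataTTCAAAtcagcagcgc
Mki67: gccgttttggTTTGAAtcgggcgggc
Plk1: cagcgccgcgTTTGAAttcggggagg

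These sites lie at chr1:128359798-128359825 (minus strand) for Mcm6, chr8:75109346-75109373 (plus) for Mcm5, chr1:20820276-20820303 (minus) for Mcm3, chr2:127831830-127831855 (minus) for Bub1, chr3:27153824-27153849 (minus) for Ect2 and chr9:70421535-70421560 (minus) for Ccnb2. Those of Kif11, Depdc1a, Mki67 and Plk1 lie at chr19:37376353-37376378 (plus), chr3:159495407-159495432 (plus), chr7:135716462-135716487 (minus) and chr7:122159455-122159480 (plus). Promoters with and without the CHR were found both among the genes that passed and among those that did not. Plk1 and Cdc20 held a CHR and had log2 fold changes of 0.01 and 0.07, while Nusap1, Ccnb1 and Cenpe, which passed as higher, held none in this window. The S phase genes with an E2F element, Mcm3, Mcm5, Mcm6, Mcm7 and Cdc6, had log2 fold changes between −0.005 and 0.17. A match of these letters is a description of the window and does not show that a factor binds there.

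**Figure D2:**
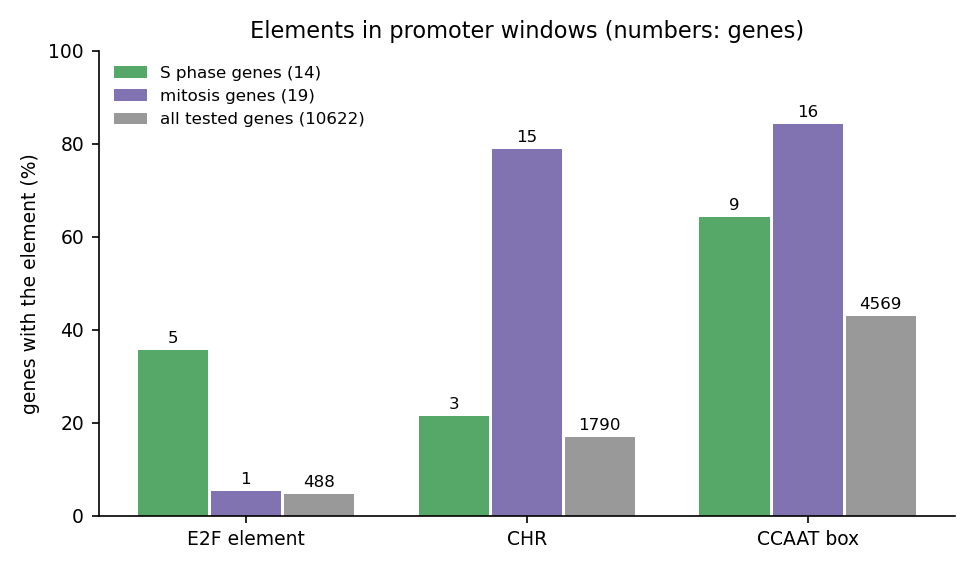
Percentage of genes (y axis) with an E2F element, a CHR or a CCAAT box in a RefSeq promoter window, for the 14 S phase genes, the 19 mitosis genes and the 10622 tested genes that had a window, with the number of genes above each bar. The CHR bar of the mitosis genes reaches 78.9%, against 16.9% of tested genes.

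Among the S phase genes, the helicase and its loading factors had the lowest median. The 9 genes of this role had a median log2 fold change of 0.07, and summed to 724 to 881 CPM (WT) and 774 to 983 CPM (Mir483Pat-KO), ranges that overlapped. Mcm2, Mcm3 and Mcm5, subunits of the ring that unwinds DNA, had log2 fold changes of −0.03, 0.02 and −0.005, with 95% intervals of −0.23 to 0.17, −0.18 to 0.21 and −0.19 to 0.19. Mcm7 was at 0.05, and the remaining subunits Mcm4, at 0.20 (adjusted p = 0.134), and Mcm6, at 0.17 (adjusted p = 0.205), did not pass. Cdc6, which loads the helicase at origins, was at 0.07, and Cdc45 and Gins2, which activate it, were at 0.14 and 0.18. Gins2 had 12.96 ± 2.64 CPM (WT) and 14.7 ± 2.23 CPM (Mir483Pat-KO; SD, n = 5 each, as for all means below). Of the Gins2 exons 67.3% overlap the gene Gse1 on the opposite strand, and although the library kit keeps strand, reads of the pair cannot be told apart if the counting ignored it.

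Pcna, the clamp that holds DNA polymerase on its template, had 158.5, 133, 144, 149 and 133 CPM in WT replicates 1 to 5. In Mir483Pat-KO replicates 1 to 5 it had 141, 147, 163, 188 and 177 CPM. Only Mir483Pat-KO replicates 3, 4 and 5 lay above all WT libraries, and replicates 1 and 2 lay within the WT range. The log2 fold change of Pcna was 0.19 ± 0.08 (SE), with an adjusted p of 0.205 in edgeR. Of its sequence 31.8% of 50-base windows also occur elsewhere, mainly in the processed pseudogene Pcna-ps2. Rfc4, a subunit of the complex that loads the clamp, was at 0.31 (WT 19.9 ± 3.70 CPM, Mir483Pat-KO 24.6 ± 3.78 CPM, adjusted p = 0.163).

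None of the 3 nucleotide supply genes passed. Rrm2, the regulated subunit of ribonucleotide reductase, was at 0.28 (WT 203.6 ± 23.01 CPM, Mir483Pat-KO 246.9 ± 32.6 CPM, adjusted p = 0.104), and 4 of 5 Mir483Pat-KO libraries lay above all WT libraries. Rrm1, its partner subunit, was at 0.13 (adjusted p = 0.280). Tyms, thymidylate synthase, was at 0.09 (adjusted p = 0.580).

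Of the genes that start S phase, Ccne2, cyclin E2, moved most, and it is given in full because its values stood out after they were seen. It had 26.6, 26.4, 29.3, 22.0 and 14.1 CPM in WT replicates 1 to 5, and 30.4, 32.8, 34.6, 34.2 and 30.9 CPM in Mir483Pat-KO replicates 1 to 5. The groups did not overlap, with WT replicate 5 the lowest of all libraries, and Ccne2 was the only S phase gene of which this held, where this held for 3.33% of all genes in this direction and for 3.25% in the other. Its log2 fold change was 0.46 ± 0.14, and at an adjusted p of 0.0664 in edgeR it did not pass. It passed in 5 of 21 alternative fits, among which the adjusted p ranged from 0.00115 to 0.324. With offsets for GC content and transcript length it was at 0.18 (adjusted p = 0.264), and in the fit to the lower range of identification numbers, described with the summed levels, at 0.27. Of the Ccne2 exons 17.4% overlap Ints8 on the opposite strand. Ccne1, the other cyclin E gene, was at 0.09 (adjusted p = 0.684), and E2f1, which drives the transcription of replication genes, was at 0.16 (adjusted p = 0.317).

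The mitosis genes given in full are protein-coding genes (GRCm38) at chr2:127801122-127831865 (Bub1, minus strand), chr2:119618298-119651244 (Nusap1, plus), chr3:27097222-27153878 (Ect2, minus), chr3:159495433-159529955 (Depdc1a, plus), chr13:100778650-100786570 (Ccnb1, minus), chr19:37376403-37421859 (Kif11, plus) and chr7:135689784-135716361 (Mki67, minus). Among them Bub1, a kinase of the spindle assembly checkpoint at the kinetochore, had the smallest p. It had 33.9, 29.1, 31.5, 32.6 and 26.6 CPM in WT replicates 1 to 5. In Mir483Pat-KO replicates 1 to 5 it had 41.4, 42.4, 42.9, 45.8 and 43.5 CPM. Every Mir483Pat-KO library lay above every WT library. Bub1 rose by a log2 fold change of 0.49 ± 0.08, a fold of 1.41 (edgeR, adjusted p = 0.00306). It passed in 20 of 21 alternative fits, with adjusted p from 1.24e-06 to 0.117. The exception was a fit to 6 of the libraries, 4 of them WT, described with the summed levels.

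The other kinetochore and checkpoint genes rose less or did not pass. Cenpe, a kinesin that carries chromosomes to the spindle equator, rose by 0.26 ± 0.07 (WT 79.5 ± 6.66 CPM, Mir483Pat-KO 94.9 ± 4.27 CPM, adjusted p = 0.0444). Cenpf, which binds the outer kinetochore, was at 0.21 (adjusted p = 0.0942), although its groups did not overlap. Birc5, or survivin, and Aurkb, the kinase with which it forms the chromosomal passenger complex, were at 0.28 (adjusted p = 0.0607) and 0.14 (adjusted p = 0.330). Bub1b was at 0.09 with a 95% interval of −0.06 to 0.24. Cdc20, the activator of the anaphase-promoting complex that the checkpoint holds back, was at 0.07 with an interval of −0.11 to 0.25.

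The spindle genes shared a median log2 fold change of 0.33, and 2 of 3 passed. Nusap1, a protein that bundles spindle microtubules, had 121.9, 115, 117, 121.7 and 100.6 CPM in WT replicates 1 to 5. In Mir483Pat-KO replicates 1 to 5 it had 133, 145, 187, 166 and 159.7 CPM. Its groups did not overlap, and Mir483Pat-KO replicate 3 was the highest. Nusap1 rose by 0.46 ± 0.09, a fold of 1.37 (edgeR, adjusted p = 0.00935). Kif11, the kinesin that pushes the spindle poles apart, had 141, 127, 128, 129 and 99.8 CPM in WT replicates 1 to 5, and 151, 148, 161, 163 and 160.9 CPM in Mir483Pat-KO, in the same order. All Mir483Pat-KO libraries were higher than all WT libraries, and WT replicate 5 was the lowest by a gap wider than the spread of the other WT libraries. Kif11 rose by 0.33 ± 0.08, a fold of 1.26 (adjusted p = 0.0301). Tpx2, which activates Aurora A on the spindle, was at 0.23 (adjusted p = 0.0566) and did not pass.

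Of the 3 cytokinesis genes, Ect2, which activates RhoA at the cleavage furrow, had 38.9, 38.9, 41.5, 35.7 and 31.2 CPM in WT replicates 1 to 5. In Mir483Pat-KO it had 48.2, 49.5, 46.8, 45.8 and 49.7 CPM. There was no overlap, and the Mir483Pat-KO libraries lay close together, with an SD of 1.67 CPM against 3.97 CPM in WT. Ect2 rose by 0.37 ± 0.08, a fold of 1.29 (edgeR, adjusted p = 0.0142). Anln, the actin-binding protein anillin of the contractile ring, was at 0.27 (adjusted p = 0.0870), and Kif23, a kinesin of the central spindle, was at 0.17 (adjusted p = 0.188).

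The mitotic cyclins rose together, while 4 other genes of this role did not pass. Ccnb1, cyclin B1, had 65.1, 61.5, 60.4, 58.8 and 52.4 CPM in WT replicates 1 to 5. In Mir483Pat-KO it had 70.8, 70.9, 69.95, 75.2 and 73.2 CPM. The groups did not overlap, and the SD was 4.64 CPM (WT) and 2.16 CPM (Mir483Pat-KO). Ccnb1 rose by 0.27 ± 0.07, a fold of 1.21 (edgeR, adjusted p = 0.0287), and 42.1% of its 50-base windows also occur elsewhere, mainly in its pseudogene Ccnb1-ps. Ccnb2, cyclin B2, rose by 0.31 ± 0.09 (WT 65.5 ± 5.50 CPM, Mir483Pat-KO 81.0 ± 9.67 CPM, adjusted p = 0.0478), and Ccna2, cyclin A2, rose by 0.29 ± 0.08 (WT 161.5 ± 18.9 CPM, Mir483Pat-KO 198.1 ± 5.85 CPM, adjusted p = 0.0416). Of the Ccna2 exons 12.5% overlap Exosc9 on the opposite strand. Cdk1, the kinase that these cyclins activate, was at 0.22 (adjusted p = 0.116). Aurka, Aurora A, was at 0.23 (adjusted p = 0.0918), and Foxm1, the transcription factor of the G2 programme, was at 0.14 (adjusted p = 0.320). Plk1, a kinase needed for mitotic entry and exit, was at 0.01, with a 95% interval of −0.20 to 0.22 (WT 46.6 ± 3.21 CPM, Mir483Pat-KO 46.9 ± 7.71 CPM).

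Mki67, the gene of the proliferation antigen Ki-67 that coats mitotic chromosomes, had 1457, 1298, 1403, 1592 and 1351 CPM in WT replicates 1 to 5. In Mir483Pat-KO it had 1689, 1634, 1746, 1621 and 1693 CPM. The groups did not overlap, the closest pair being WT replicate 4 and Mir483Pat-KO replicate 4. Its log2 fold change was 0.24 ± 0.07, a fold of 1.18, and at an adjusted p of 0.0551 in edgeR it did not pass. It passed in 4 of 21 alternatives, with DESeq2 (adjusted p = 0.00588), limma-voom (0.0377), edgeR's robust fit (0.0460) and without WT replicate 4 (0.0491), and over all of them the adjusted p reached 0.362. Per kilobase of transcript it had the highest level of the 40 genes in WT, at 141 CPM per kb, followed by Pcna at 94.5 and Rrm2 at 92.8. Top2a, the topoisomerase that untangles sister chromatids, was at 0.16 (WT 348 ± 31.03 CPM, Mir483Pat-KO 388.5 ± 14.2 CPM, adjusted p = 0.202).

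Depdc1a, which is expressed in mitotic cells, had the largest fold change of the 40 genes and the lowest level, 2.5 CPM per kb in WT. It had 9.40, 9.95, 11.4, 7.53 and 3.24 CPM in WT replicates 1 to 5. In Mir483Pat-KO it had 13.95, 16.7, 20.0, 17.2 and 12.2 CPM. The groups did not overlap, and the closest libraries were WT replicate 3 and Mir483Pat-KO replicate 5. Depdc1a rose by 0.95 ± 0.23, a fold of 1.93 with a 95% interval of 1.39 to 2.69 (edgeR, adjusted p = 0.0254), and it alone among the 40 genes passed with a fold over 1.5, which 0.355% of all genes did as higher and 0.872% as lower. Of its 50-base windows 62.6% also occur elsewhere, mainly in the processed pseudogene Gm5596. It did not pass without WT replicate 4 (adjusted p = 0.0583) or without Mir483Pat-KO replicate 2 (0.0520), 3 (0.0641) or 4 (0.0686), nor in edgeR's robust fit to all 10 libraries (0.0692), and over all alternatives its adjusted p ranged from 2.34e-07 to 0.135.

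**Figure D3:**
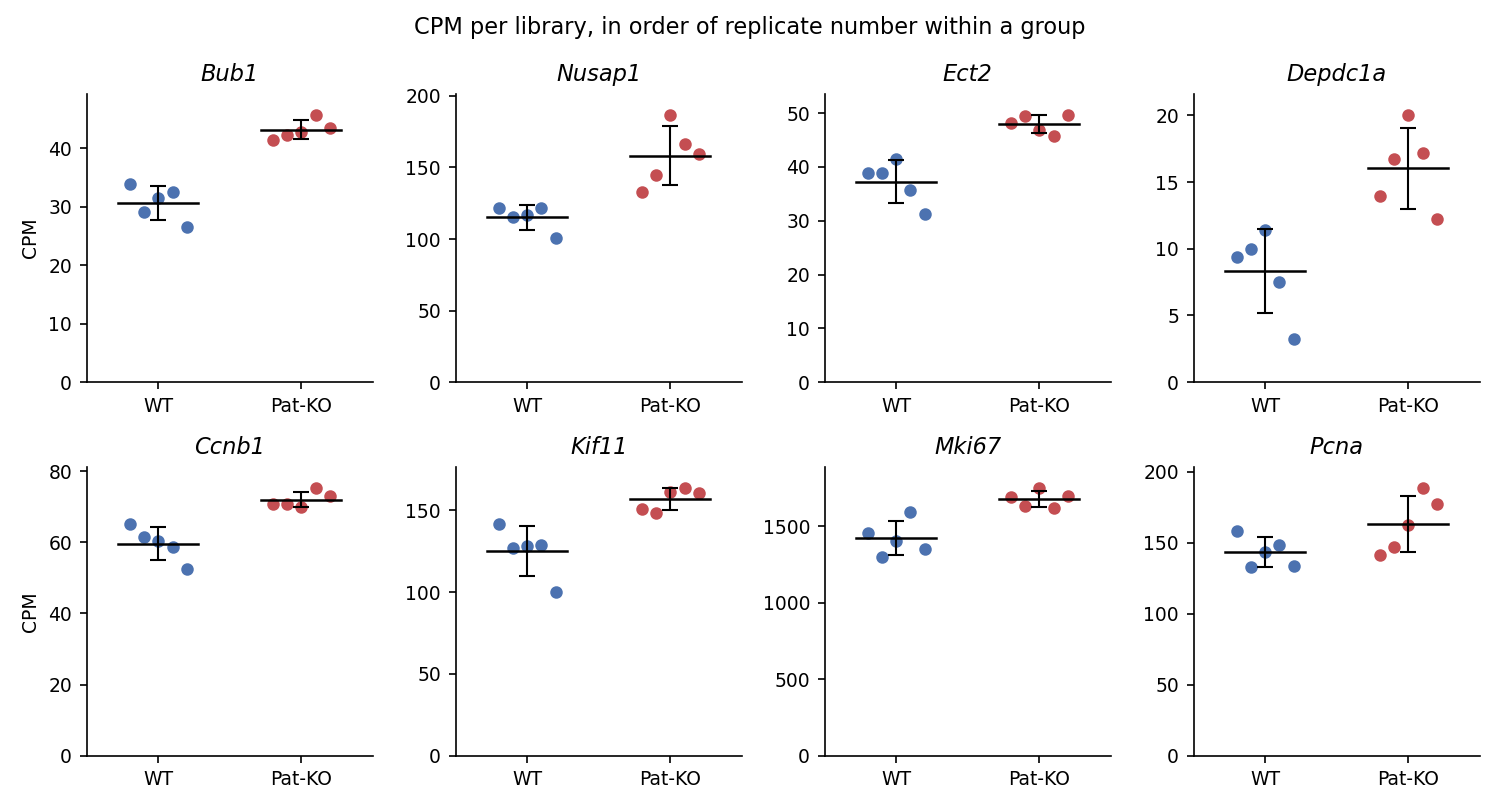
CPM (y axis, from 0) of Bub1, Nusap1, Ect2, Depdc1a, Ccnb1, Kif11, Mki67 and Pcna in each of the 5 WT (blue) and 5 Mir483Pat-KO (red) libraries, with the mean and SD in black. The groups do not overlap for the mitosis genes drawn, which apart from Mki67 were taken for the smallest p, while 2 of the 5 Mir483Pat-KO points of Pcna lie within the WT range. Without overlap were 10 of all 23 mitosis genes and 1 of all 17 S phase genes, where 3.33% of all genes were in this direction.

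Summed over each group of genes, the libraries separated by genotype for mitosis and not for S phase. The mitosis genes summed to 3412, 3032, 3207, 3426 and 2924 CPM in WT replicates 1 to 5. In Mir483Pat-KO they summed to 3725, 3645, 3857, 3848 and 3856 CPM, above every WT library. The S phase genes summed to 1619, 1367, 1502, 1591 and 1501 CPM in WT replicates, and to 1563, 1507, 1564, 1814 and 1869 CPM in Mir483Pat-KO. For S phase only Mir483Pat-KO replicates 4 and 5 lay above the WT range, and replicates 1, 2 and 3 lay within it. The ratio of the mitosis to the S phase sum was 2.11, 2.22, 2.13, 2.15 and 1.95 in WT, and 2.38, 2.42, 2.47, 2.12 and 2.06 in Mir483Pat-KO. Mir483Pat-KO replicates 1, 2 and 3 were above WT in mitosis genes alone and had a ratio above every WT library, whereas replicates 4 and 5 were above WT in both groups and had a ratio within the WT range. Mki67 alone made up 1420 of the mean mitosis sum of 3200 CPM in WT and 1677 of 3786 CPM in Mir483Pat-KO. With every gene weighted equally, as the mean over genes of log2 CPM centred on the 10 libraries, the mitosis genes were at 0.005, −0.19, −0.10, −0.08 and −0.32 in WT replicates 1 to 5 and at 0.07, 0.07, 0.14, 0.22 and 0.18 in Mir483Pat-KO, again without overlap. The S phase genes were at 0.05, −0.22, −0.09, −0.008 and −0.10 in WT and at −0.03, −0.05, −0.0004, 0.22 and 0.22 in Mir483Pat-KO, with overlap. On this scale mitosis minus S phase was −0.05, 0.03, −0.01, −0.07 and −0.22 in WT and 0.10, 0.12, 0.14, −0.006 and −0.05 in Mir483Pat-KO, so that replicates 1, 2 and 3 were again above every WT library and replicates 4 and 5 were not.

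**Figure D4:**
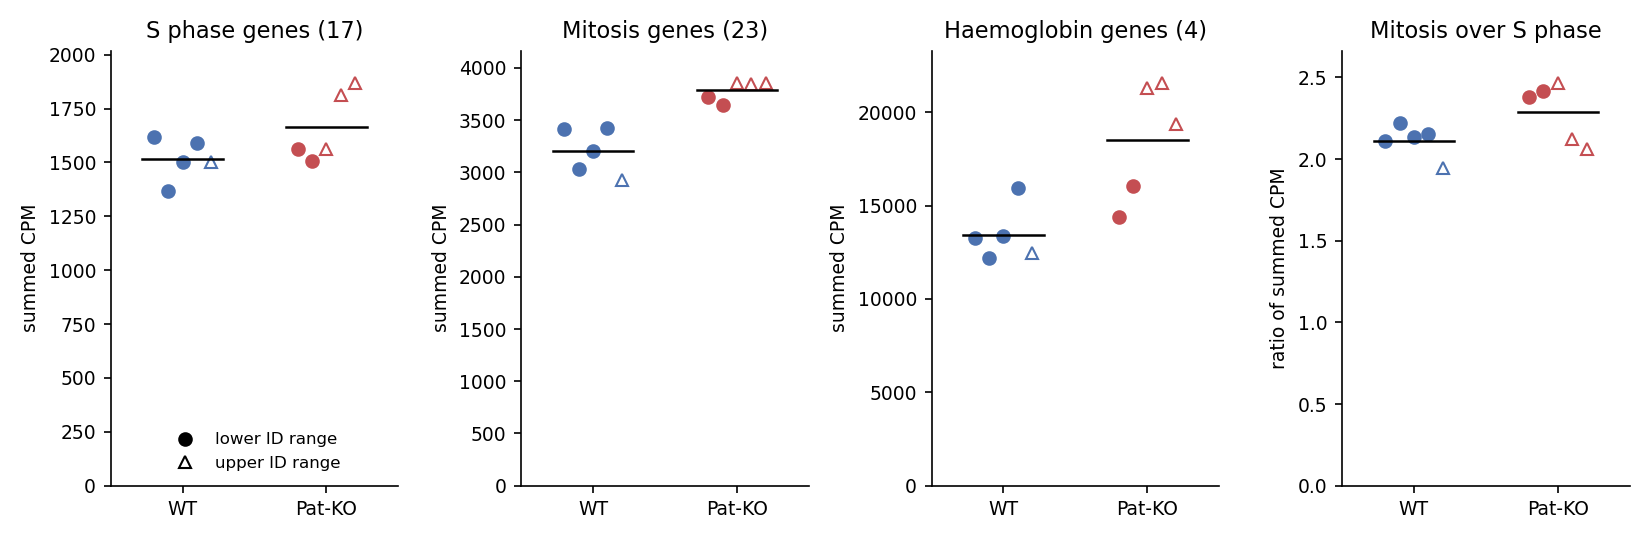
Summed CPM (y axis, from 0) of the S phase, mitosis and haemoglobin genes in each library, and the ratio of the mitosis to the S phase sum, with the group mean as a line, filled circles for the lower and open triangles for the upper range of identification numbers. The mitosis sums of Mir483Pat-KO start at 3645 CPM and those of WT end at 3426 CPM, while the S phase sums overlap.

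The libraries carry identification numbers in 2 ranges, the lower with 4 WT and 2 Mir483Pat-KO and the upper with 1 and 3 of them, and what the ranges stand for is not given in the sources used here. Within the lower range the mitosis sums were 3032 to 3426 CPM (WT) and 3645 to 3725 CPM (Mir483Pat-KO), which did not overlap, and the S phase sums of Mir483Pat-KO, 1507 to 1563 CPM, lay within the WT range of 1367 to 1619 CPM. In the fit to the lower range alone 0 of the 40 genes passed and 23 of all genes did, and the median log2 fold changes were 0.15 for mitosis and −0.009 for S phase. With the range as a covariate 9 mitosis genes passed, 8 of them among the 9 above, as did Ccne2 of the S phase genes, and the medians were 0.25 and 0.09. The sequencing index numbers were 53 to 57 for WT and 60 to 64 for the other genotype, so index order and genotype cannot be told apart.

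The count of 9 mitosis genes depended on single libraries and on GC content. It was 11 without WT replicate 1 and 7 without WT replicate 2, and 4, 4 and 5 without WT replicates 3, 4 and 5. It was 8, 5, 4, 3 and 4 without Mir483Pat-KO replicates 1 to 5. The count over all genes moved as well, from 731 with every library to 743, 863 and 494 without WT replicates 1, 2 and 3. Its range over all these fits is given in the last section. Bub1, Nusap1 and Ect2 passed in all 10 of these fits, Depdc1a in 6, Kif11 in 5, Ccnb1 in 4, Ccnb2 in 3, Ccna2 in 2 and Cenpe in 1. Of the S phase genes 1, Ccne2, passed without WT replicate 3. The median log2 fold change of the mitosis genes stayed between 0.21 and 0.26 and that of the S phase genes between 0.09 and 0.16.

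Genes with AT-rich transcripts had higher log2 fold changes, among the 40 as among all genes. Over all tested genes the median log2 fold change was 0.20 in the decile with the lowest GC content and −0.14 in the decile with the highest. The mitosis genes that passed had a median GC content of 42.2%, the other mitosis genes 47.8% and the S phase genes 49.2%. Depdc1a (35.3%), Ect2 (40.2%), Bub1 (41.0%), Nusap1 (41.8%) and Kif11 (42.2%) lay at the AT-rich end, and Plk1 (55.98%) and Cdc20 (55.6%), with log2 fold changes of 0.01 and 0.07, at the GC-rich end of the mitosis genes. Ccne2 had the lowest GC content of the S phase genes, at 36.3%. All 40 genes lay above the median of their own GC decile, by a median of 0.20 for mitosis and 0.13 for S phase. With offsets that remove each library's smooth trend on GC content and transcript length, 3 mitosis genes passed, Bub1 at 0.31 (adjusted p = 0.0207), Ccnb2 at 0.26 (adjusted p = 0.0431) and Depdc1a at 0.64 (adjusted p = 0.0234). Over all alternatives the adjusted p of Ccnb2 ranged from 0.0125 to 0.614. The medians with these offsets were 0.17 for mitosis and 0.09 for S phase, and Ect2, at 0.17, Nusap1, at 0.29, Kif11, at 0.17, Ccnb1, at 0.16, Ccna2, at 0.22, and Cenpe, at 0.11, did not pass.

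The trend on GC content differed between libraries. As the correlation across genes of a library's log2 ratio to the mean library with GC content, it was −0.410, −0.413 and −0.298 in Mir483Pat-KO replicates 1, 2 and 3, which had the 3 highest ratios of the 2 sums, and 0.581 in WT replicate 5, which had the lowest. It was 0.464 in WT replicate 4, whose ratio of 2.15 was the second highest in WT and whose difference of the equally weighted means, −0.07, was the second lowest in WT, and from −0.176 to 0.194 in the other 5 libraries. Between genotypes it averaged 0.184 ± 0.319 (WT) and −0.221 ± 0.251 (Mir483Pat-KO; exact permutation test, two-sided p = 0.0635). Its part in the result was not tested beyond the offsets.

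**Figure D5:**
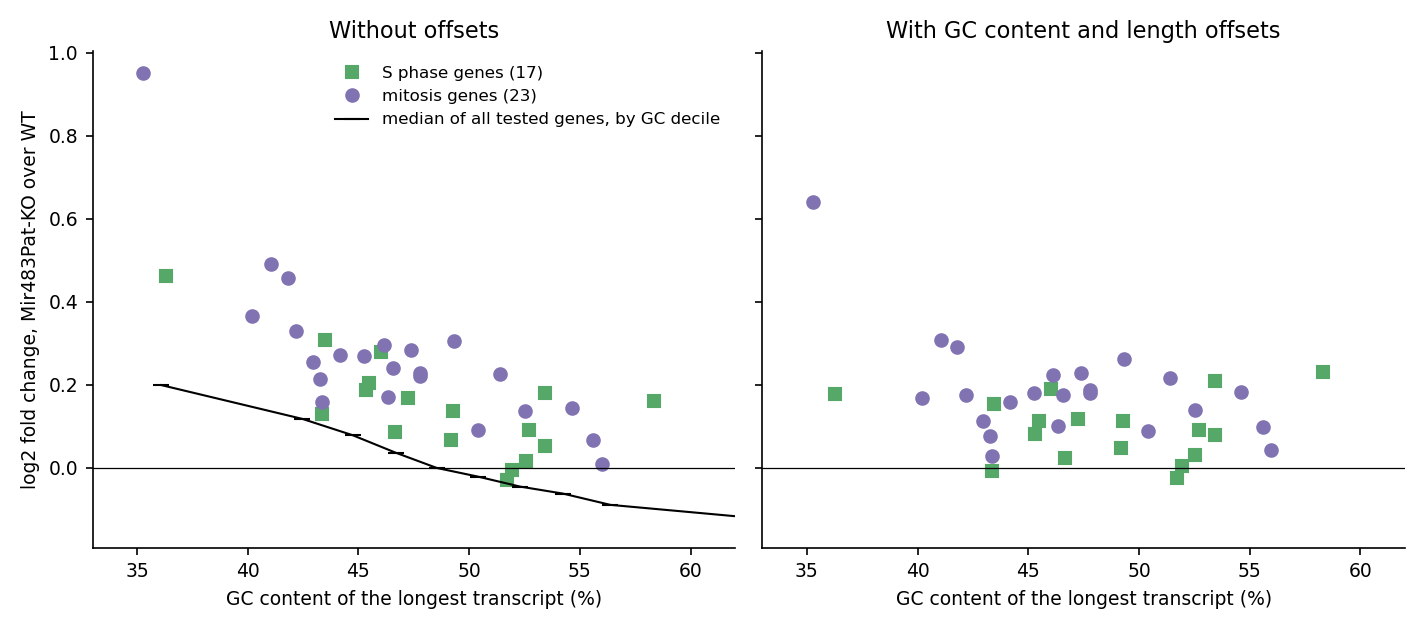
Log2 fold change of Mir483Pat-KO over WT (y axis) against the GC content of the longest transcript (x axis) for the S phase genes (squares) and mitosis genes (circles), without offsets (left) and with GC content and length offsets (right), with the median of all tested genes per GC decile as a line on the left. On the left every point lies above the line, which falls from 0.20 at the lowest GC content, and on the right Depdc1a stays apart at 0.64.

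Other genes of both phases come from lists that, like the 40 genes, were written with earlier results of these data known. Of 63 other mitosis genes 22 (34.9%) rose and 0 fell, with a median log2 fold change of 0.22, where 2.43% of all genes passed as higher. The 3 with the smallest p were Smc2 (0.43), a condensin subunit that compacts chromosomes, Ncapg (0.56), another condensin subunit, and Spc25 (0.48), a part of the NDC80 complex that holds microtubules at the kinetochore. Of 45 other replication genes 3 (6.67%) rose and 0 fell, with a median of 0.12. They were Orc6 (0.48), a subunit of the origin recognition complex, Tipin (0.35), which protects stalled forks, and Rad51ap1 (0.38), a repair factor. The count of 22 was 13 without WT replicate 3 or 4, and 12, 11, 8 and 14 without Mir483Pat-KO replicates 2, 3, 4 and 5. The count of 3 was 6 without WT replicate 1, and 1 without WT replicate 3, 4 or 5 or Mir483Pat-KO replicate 3 or 4. With the GC content and length offsets the counts were 7 and 2. Of the named genes Spc25 (0.32) and Orc6 (0.37) passed with offsets, while Smc2 was at 0.21 (edgeR, adjusted p = 0.128), Ncapg at 0.23 (0.190), Tipin at 0.14 (0.412) and Rad51ap1 at 0.30 (0.0875), and these 4 calls were lost.

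Regulators of the cycle moved in both directions. Of 27 other cyclins, kinases and E2F regulators 2 (7.41%) rose and 0 fell, where 2.43% of all genes passed as higher. The median of these regulators was 0.13. Those that rose were Dbf4 (0.30), the activator of the kinase that fires origins, and Cdc25b (0.36), a phosphatase that activates CDK1. Mybl2, the MuvB partner in S phase, was at −0.03 (adjusted p = 0.851). The count of 2 was 1 without WT replicate 1, 2 or 4 or Mir483Pat-KO replicate 1 or 2, and 0 without any other library. With the offsets Dbf4 was at 0.07 (edgeR, adjusted p = 0.677) and did not pass, and Cdc25b was at 0.39 and did. Of 24 inhibitors and checkpoint genes 22 were tested, and 5 (22.7%) rose and 1 fell, with a median of 0.17. Cdkn1b, the inhibitor p27, rose by 0.63 (WT 46.5 ± 6.62 CPM, Mir483Pat-KO 71.99 ± 12.4 CPM, edgeR adjusted p = 0.00733), and Rb1, which restrains E2F, rose by 0.56 (adjusted p = 0.0138). E2f4, a repressor of the family, was at 0.13 (adjusted p = 0.333). The count of 5 was 3 without WT replicate 5 or Mir483Pat-KO replicate 3, and it was 2 when replicate 4 of that genotype was left out.

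Cdkn1a, the inhibitor p21 that p53 switches on, moved the opposite way. It had 44.1, 50.5, 46.0, 50.6 and 48.9 CPM in WT replicates 1 to 5 and 33.05, 27.3, 28.1, 24.4 and 25.5 CPM in Mir483Pat-KO. Every Mir483Pat-KO library lay below every WT library. Cdkn1a fell by 0.80 on the log2 scale (SE 0.08, edgeR, adjusted p = 0.000353), and it passed in all 21 alternatives, with adjusted p from 3.02e-14 to 0.0436. Cdkn1c, the imprinted inhibitor p57, had 132.8, 11.1, 189.4, 189.9 and 214.1 CPM in WT replicates 1 to 5 and 217.5, 275.9, 282.0, 327.0 and 356.4 CPM in Mir483Pat-KO. The groups did not overlap, but WT replicate 2 lay far below the others, and at a log2 fold change of 0.98 ± 0.42 Cdkn1c did not pass (adjusted p = 0.183). Without WT replicate 2 it passed, at 0.68 (edgeR, adjusted p = 0.0118), as it did with no filter on low counts (3.44e-05), and over all alternatives the adjusted p reached 0.546.

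Red cell precursors are a dividing population of the fetal liver. Of 23 erythroid markers tested 4 (17.4%) rose, where 2.43% of all genes did, and 0 fell, with a median log2 fold change of 0.20. In all 21 markers lay above 0, as did 50.9% of all genes. At an unadjusted p under 0.05, 13 markers were higher, where 11.5% of all genes were. None of the markers was at 0 in any library, and they summed to 19356 to 24435 CPM (WT) and 22572 to 30720 CPM (Mir483Pat-KO). Among those that rose were Hbb-bs, a beta-globin, at 0.54 (edgeR, adjusted p = 0.0120) and Kel, a blood group antigen of red cells, at 0.27 (adjusted p = 0.0434). Hbb-bs passed in all 10 fits without 1 library and Kel only without Mir483Pat-KO replicate 1, with adjusted p of 0.0583 to 0.125 in the other 9. The lower range of identification numbers alone leaves out WT replicate 5 and Mir483Pat-KO replicates 3, 4 and 5. In the fit to it Hbb-bs was at 0.23 (edgeR, adjusted p = 0.320) and Kel at 0.12 (adjusted p = 0.550), and neither passed. Klf1 and Gata1, transcription factors of the lineage, were at −0.12, the lowest of the 23, and 0.05 and did not pass. The 4 haemoglobin genes took 1.22% to 1.60% of counts in WT, 1.44% to 1.61% in Mir483Pat-KO replicates 1 and 2 and 1.93% to 2.16% in replicates 3, 4 and 5. In Mir483Pat-KO replicates 1 and 2 the erythroid markers summed to 22572 to 24248 CPM, below WT replicate 4 at 24435 CPM and above the other 4 WT libraries at 19356 to 21426 CPM. The part of erythroid cells in the mitosis result was not tested.

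Of 17 hepatocyte markers 0 rose and 2 fell, Cps1 by 0.65 and Apoa1 by 0.30 on the log2 scale, with a median of −0.18. Of all genes tested 2.43% passed as higher and 2.76% as lower. In all 15 hepatocyte markers lay below 0, where 50.9% of all genes lay above 0. At an unadjusted p under 0.05, 8 hepatocyte markers were lower, and the share of all genes lower at this threshold was not counted. DESeq2 passed 4 and limma-voom 3 hepatocyte markers as lower, where they passed 1167 and 753 of all genes in either direction. Of 11 B lymphoid progenitor markers 2 (18.2%) rose, Rag1 (0.47) and Rag2 (0.80), with a median of 0.11. Of 10 macrophage markers 2 fell, C1qa by 0.29 and Clec4f by 0.46, with a median of −0.02. Of the 10 fits without 1 library Cps1 passed in 10, Rag1 and Rag2 in 9 (not without Mir483Pat-KO replicate 4), Apoa1 in 6 (not without WT replicate 5 or Mir483Pat-KO replicate 3, 4 or 5), and C1qa and Clec4f in 4. Both macrophage calls were lost without WT replicate 4 or 5 or Mir483Pat-KO replicate 2, 4 or 5, that of C1qa also without Mir483Pat-KO replicate 1 and that of Clec4f also without WT replicate 1 and in the robust fit. With the GC content and length offsets Rag1 (adjusted p = 0.0568), Apoa1 (0.0817) and C1qa (0.0722) did not pass, nor did Rag2 with offsets and replicate block (0.0821). In edgeR 0 passed of 12 neutrophil, 7 megakaryocyte, 10 endothelial, 10 stellate and mesenchymal and 8 haematopoietic progenitor markers, with medians of −0.003, −0.19, −0.15, −0.39 and −0.003. At an unadjusted p under 0.05, 1 neutrophil marker was higher, where 11.5% of all genes were. At the same threshold 3 endothelial and 5 stellate and mesenchymal markers were lower, again without a share of all genes to set beside them. For the same lists DESeq2 and limma-voom passed 0 genes, except for 2 and 1 stellate and mesenchymal markers that were lower.

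Sites for the deleted microRNA were searched in the cell cycle genes. The Mir483 hairpin gives 2 mature forms, whose RefSeq sequences (GRCm38.p6) at chr7:142654932-142654952 and chr7:142654968-142654989 on the minus strand are shown 5′ to 3′ with the seed, bases 2 to 8, in capitals.
mmu-miR-483-3p: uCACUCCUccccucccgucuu
mmu-miR-483-5p: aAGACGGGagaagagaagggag

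The match to the 3p seed, AGGAGTG, was looked for in the longest 3′ UTR annotated for each gene. It occurred in 2 of the 40 genes (5.00%), Tyms and Ect2, against 1794 of the 12888 tested genes with a 3′ UTR (13.9%). The 3′ UTRs of the 40 genes were also shorter, with a median of 865 bases against 1357.5. Both sites are shown with 9 bases on each side and the seed match in capitals.
Tyms: tttatattcAGGAGTGctctaaaca
Ect2: cacgttcagAGGAGTGttacaggtc

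Ect2 was among the genes that passed, and Tyms was not. The match to the 5p seed, CCCGTCT, occurred in Tyms and Gins2, 2 of 40 (5.00%), against 3.68% of tested genes. Of the 9 mitosis genes that rose, 8 therefore held no 7-base match to either seed in the 3′ UTR searched.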

How the data were processed

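PolyA RNA was sequenced in livers of 5 WT and 5 Mir483Pat-KO fetuses. The authors aligned read pairs to GRCm38 with STAR and deposited raw counts per Ensembl gene, without normalization. The libraries were stranded, but the strand setting of the counting and the treatment of reads with several matches are not given in the sources used here. Groups follow the labels. Tests were run with edgeR 4.0.16 in R 4.3.3 (filterByExpr defaults, TMM, quasi-likelihood F-test without covariates, Benjamini-Hochberg over 14098 genes, common biological coefficient of variation 0.111). P-values measure the spread between these libraries, and the floor of 3 counts covers counting error only. Gene models, GC content and 3′ UTRs came from GENCODE (GRCm38), and promoters and microRNAs from RefSeq (GRCm38.p6). The 40 genes and the lists of pathway and cell type genes were chosen with earlier results of these data known.

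Values in every library are given for up to 6 passing genes per phase with the smallest p, for Mki67 and Pcna, for Cdkn1a and Cdkn1c, and for Ccne2, which was chosen after its values were seen. Of other lists up to 3 passing genes with the smallest p are named, and Mir483, Mybl2, E2f4 and Rb1 whatever their result. 1 gene that this rule names is not reported here. Alternatives were DESeq2 1.42.0, limma-voom (limma 3.58.1), RLE scaling, the robust fit, 2 other filters, the replicate block, the identification number range, GC content and length offsets with and without the block, each library left out, and 13 genes with shared or overlapping sequence left out. The procedure was tested on simulated data. Within each genotype no pair of libraries was alike within counting noise, with chi-square per degree of freedom of 4.85 to 20.3 over 20 pairs. Figures used Python 3.11.15 and matplotlib 3.10.9.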

Additional observations from a re-analysis of the deposited data

Results flagged for a closer look

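Of 84 sets of 5 libraries checked (each of the 40 genes and the sums of both phases, in each genotype), 1 held a library that stood apart from the others by Dixon's criterion, where chance gives about 1 in 20. Cdc6, which loads the replicative helicase, had 39.1 CPM in WT replicate 2, and the next lowest WT library had 45.0 CPM, a gap of 0.777 of the whole WT range. The same library had the lowest S phase sum of all libraries, 1367 CPM. Cdc6 passed in none of the alternatives, and its log2 fold change lay between 0.016 and 0.11 over the 10 fits that leave out 1 library.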

How the results depend on the processing

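Against 0 S phase, 9 mitosis and 731 genes in all, DESeq2 passed 1 (Ccne2), 12 and 1167, no low-count filter 2 (Ccne2 and Rrm2), 11 and 1258, the identification number range as a covariate 1, 9 and 1189, the lower range alone 0, 0 and 23, and the GC content and length offsets 0, 3 and 632. Without 13 genes of shared or overlapping sequence, 0 of 9 S phase and 6 of 18 mitosis genes passed, with medians of 0.09 and 0.23. The genes left out were Mcm7, Pcna, Rrm2, Tyms, Cdc45, Gins2, Rfc4, Ccne2, Ccna2, Ccnb1, Plk1, Cdc20 and Depdc1a. Whether replicate numbers pair the libraries is not given in the sources used here. Deviations of same-numbered libraries correlated at 0.0871 on average (−0.0496 to 0.261), against −0.0217 for other pairs, which does not settle it. With the replicate block 1 S phase gene (Ccne2), 11 mitosis genes and 1338 genes in all passed, and with block and offsets together 4 mitosis genes. Leaving out 1 library gave 0 to 1 S phase genes (1 without WT replicate 3, Ccne2), 3 to 11 mitosis genes and 279 to 863 genes in all. Of other replication genes 3 passed, 6 with DESeq2, without a filter and with the block, 0 in the lower range, and 1 to 6 without 1 library. Of other mitosis genes 22 passed, 0 in the lower range, 7 with offsets, 9 with offsets and block, and 8 to 25 without 1 library. Of cyclins, kinases and E2F regulators 2 passed, 1 with the covariate, with offsets and with offsets and block, 0 in the lower range, and 0 to 1 without 1 library. Of inhibitors 5 rose, 3 with the covariate and with offsets, 0 in the lower range, and 2 to 6 without 1 library. In the lower range alone the S phase median turned to −0.0093. Signs also turned for 13 genes, none of which passed in any alternative. In the lower range Mcm3 was at −0.028, Mcm7 at −0.018, Pcna at −0.022, Tyms at −0.029, Cdc6 at −0.060, Ccne1 at −0.20, E2f1 at −0.0093, Plk1 at −0.23 and Cdc20 at −0.020. With the covariate Mcm3 was at −0.033, Ccne1 at −0.0097 and Plk1 at −0.072, and with limma-voom Plk1 was at −0.0013. With offsets Mcm5 was at 0.0055, Rrm1 at −0.0080 and Mybl2 at 0.021, and with the block added at 0.0059, −0.0095 and 0.021. Without 1 library Mcm2 ranged from −0.12 to 0.0048, Mcm3 from −0.052 to 0.065, Mcm5 from −0.079 to 0.022, Plk1 from −0.090 to 0.072 and Mybl2 from −0.12 to 0.0059. The causes were not tested, and the fit to the lower range also holds fewer libraries. The difference of the phase medians kept its sign in every alternative, from 0.069 without WT replicate 5 to 0.163 in the lower range. DESeq2 and the filter of at least 10 counts in every library gave no value for Mir483.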
